A study of Homo sapiens with 16 samples.

Results

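The genes described here are CIITA, CD74 and 8 HLA class II genes (HLA-DRA, HLA-DRB1, HLA-DRB5, HLA-DQA1, HLA-DQB1, HLA-DPA1, HLA-DPB1 and HLA-DMA), 10 of the 60676 gene identifiers measured. They were chosen from measured values of these same libraries, namely their higher levels in one cell line and their different levels between replicates 1 to 4 and 5 to 8, so those differences are given as a description with no test. Each symbol matched 1 Ensembl identifier in both count tables. RNA was sequenced in 16 libraries of 2 established human melanoma lines, with 8 libraries of A101D, labelled as methionine dependent, and 8 of MeWo, labelled as methionine independent. The study asked what changes when homocysteine replaces methionine in the culture medium, and per its protocol the cells received either methionine at 200 µM or, in its place, homocysteine at 200 µM. No label gives the medium of a library, so the line and the replicate number are the groupings used here, and the labels do not say whether the libraries of a line are separate cultures. The spread within a line therefore holds whatever the media did, and in whole cultures fewer cells that express a gene and less RNA per cell cannot be told apart.

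MHC class II molecules are surface receptors made of an alpha and a beta chain, which show peptides from the endosome to CD4+ T cells. CD74, the invariant chain, holds the empty groove until the endosome, and HLA-DM exchanges what is left of it for peptide. CIITA is the co-activator that sets class II transcription: it binds no DNA itself and docks on the RFX, CREB and NF-Y proteins that sit on the X and Y boxes of class II promoters. Class II is normally made by B cells, dendritic cells and macrophages and in other cells after interferon-gamma, and some melanomas make it without that signal.

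The boxes on which CIITA docks can be read in the RefSeq promoter windows (GRCh38.p14, 250 bases before to 50 after each start site), which hold 8 of the 10 genes. CIITA and HLA-DRA are not among them. The X box was searched as GNNACNGAT and the Y box as ATTGG, on both strands, and a pair is an X box that ends within 40 bases before a Y box on the same strand. The 2 boxes share no letters in a pair. A pair was found for 4 of the 8 genes, and these stretches are shown because they carry both boxes, in capitals (X first, Y second), 5′ to 3′ on the gene's strand, which is the minus strand for all 4.
HLA-DRB1 (chr6:32589878-32589938): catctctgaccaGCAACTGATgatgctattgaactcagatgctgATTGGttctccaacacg
HLA-DRB5 (chr6:32530361-32530421): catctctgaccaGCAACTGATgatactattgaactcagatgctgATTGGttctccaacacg
HLA-DQB1 (chr6:32666729-32666789): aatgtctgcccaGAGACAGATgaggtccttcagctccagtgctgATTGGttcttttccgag
HLA-DMA (chr6:32953160-32953221): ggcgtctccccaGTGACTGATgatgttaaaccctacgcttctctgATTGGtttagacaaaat

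HLA-DRB1 and HLA-DRB5 differ at 1 of these 61 bases and have the same X box letters. The spacing was alike in the 4 genes, with 23 bases between the boxes in HLA-DRB1, HLA-DRB5 and HLA-DQB1 and 24 in HLA-DMA. The X box began 78 bases before the start site in HLA-DRB1 and 112 to 122 bases before it in HLA-DMA, HLA-DQB1 and HLA-DRB5. Of all 35116 windows, 6.55% held the X letters, 34.6% the Y letters and 98 (0.279%) the pair. With 1 mismatch allowed in the fixed letters of the X box, HLA-DQA1 also had a pair, and so did 5.82% of all windows. These matches describe letters in a window and were not measured as bound in these cells.

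All 10 genes were high in A101D and low in MeWo, and the lowest A101D library lay above the highest MeWo library for each of them. Levels are in CPM, counts per 1e6 of the library size after scaling by trimmed mean of M-values (TMM). CIITA, the regulator, had 67.3 ± 13.4 CPM in A101D and 8.72 ± 0.696 CPM in MeWo (SD, n = 8 per line), a 7.66-fold ratio of summed counts with an exact 95% interval of 7.34 to 8.0 that covers counting error only. Part of the CIITA counts is uncertain: 14.3% of the 100-base windows of its principal transcript occur in a further gene model, AC133065.3, and the gene DEXI overlaps it on the opposite strand. Their part in the CIITA values, and in the levels per CIITA below, was not tested. CD74 had 372 ± 28.4 CPM in A101D and 2.45 ± 0.501 CPM in MeWo, 152-fold apart (141 to 164). The 7.66-fold ratio of CIITA was thus the smallest of the 10, and 56.1-fold, for HLA-DMA, was the next. In all, the 10 genes took 0.141% to 0.167% of the counts of an A101D library and 0.00121% to 0.00160% of those of a MeWo library. Among all 19247 genes tested between the lines, 31.1% had libraries that did not overlap with MeWo lower, so the lack of overlap alone is common in these data, and it was part of how the 10 genes were found.

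**Figure D1:**
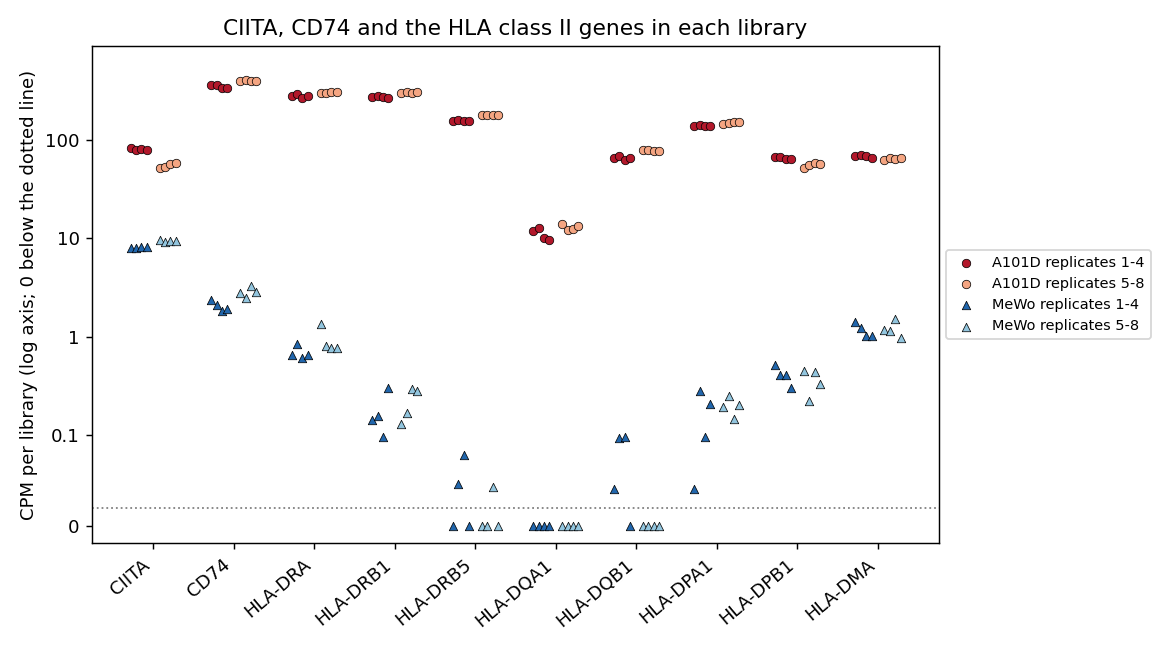
CPM of the 10 genes in each of the 16 libraries on a log axis, with circles for A101D, triangles for MeWo, dark symbols for replicates 1 to 4 and light ones for replicates 5 to 8; libraries with no count lie below the dotted line. CIITA stays near 8.72 CPM in MeWo while HLA-DQA1 has no count in any MeWo library.

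The HLA-DR genes, which encode the alpha chain HLA-DRA and its beta chains HLA-DRB1 and HLA-DRB5, were the most abundant of the HLA genes in A101D per kb of transcript. HLA-DRA had a lowest, median and highest A101D library of 267.9, 295.5 and 307.6 CPM, and of 0.603, 0.766 and 1.35 CPM in MeWo. HLA-DRB1 had 266 to 307 CPM in A101D with a median of 288, and 3 to 11 counts per MeWo library. Its summed counts were 1451-fold apart (1112 to 1932). HLA-DRB5, a second beta chain gene that only some haplotypes carry, had 154 to 181 CPM in A101D with a median of 170.4, and 4 counts over all 8 MeWo libraries, a ratio of 11470 with an interval of 4481 to 42120. The alpha and beta chain genes kept close to each other in A101D, with 1.01 ± 0.027 HLA-DRA counts per HLA-DRB1 count (SD, n = 8) from transcripts of 1280 and 1229 bases. HLA-DRB5 made up 36.9 ± 0.54% of the CPM of both beta chain genes, with a range of 36.2% to 37.7%. That split is uncertain, because 8.42% of the 50-base windows of the HLA-DRB5 transcript in GENCODE v29 also occur in HLA-DRB1, while none of its 100-base windows occur in another gene, and the alleles of the cells may differ from the reference.

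The HLA-DQ genes were unequal. HLA-DQB1, the beta chain, had 62.1, 72.6 and 79.5 CPM in its lowest, median and highest A101D library, and 7 counts in all of MeWo, a ratio of 2792 (1355 to 6945). The 7 counts were 1, 3 and 3 in replicates 1 to 3, and no other MeWo library had one. The fitted log2 difference of -11.34 over all libraries was -10.24 in replicates 1 to 4 alone and -12.38 in replicates 5 to 8 alone. HLA-DQA1, the alpha chain, had 9.54, 12.2 and 14.1 CPM in A101D and was the lowest of the HLA genes there per kb of transcript. No MeWo library had a count of HLA-DQA1, which allows up to 3 counts over the 8 libraries (0.011 CPM). Set against 3 counts A101D was 1090-fold higher, and the exact 95% interval of the ratio began lower, at 886. Of the 50-base windows of the HLA-DQA1 transcript, 9.53% also occur in HLA-DQA2, and alleles far from the reference can lower its count. The HLA-DQA1 promoter, shown here for its X box with 1 mismatch, reads as follows on the plus strand.
HLA-DQA1 (chr6:32637293-32637354): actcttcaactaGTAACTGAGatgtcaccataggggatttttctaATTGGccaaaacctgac

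HLA-DPA1 and HLA-DPB1 encode the alpha and beta chains of HLA-DP and overlap on opposite strands of chromosome 6 in GENCODE v29, so with an unknown strand setting in the counting their reads may be mixed. HLA-DPA1 had 137 to 152.5 CPM in A101D with a median of 144, and 1 to 9 counts per MeWo library. HLA-DPB1 had 51.7 to 67.0 CPM with a median of 60.8 in A101D, and 8 to 18 counts per MeWo library. The ratios of summed counts were 816 (615 to 1106) for HLA-DPA1 and 157 (130 to 193) for HLA-DPB1. HLA-DMA, the alpha chain of the peptide exchange factor, had 62.4, 65.4 and 70.7 CPM in its lowest, median and highest A101D library and 0.972, 1.15 and 1.5 CPM in MeWo. Of HLA-DMA too, 7.32% of the 100-base windows of the transcript occur in another gene model, AL645941.2.

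The counts that MeWo still had were thus mostly of CIITA, CD74, HLA-DMA and HLA-DRA. These 4 reached the level of the low-count filter (0.298 CPM, or 10 counts at the median depth) in all 8 MeWo libraries, HLA-DPB1 in 7 and HLA-DRB1 in 1. The other 4 (HLA-DRB5, HLA-DQA1, HLA-DQB1 and HLA-DPA1) reached it in no MeWo library and passed the filter through A101D alone. For those 4 the fitted log2 differences, from -12.79 to -9.66, depend on how small counts are treated. The fitted log2 differences, MeWo minus A101D, of the others were -2.92 ± 0.13 (SE) for CIITA, -5.81 ± 0.09 for HLA-DMA, -7.26 ± 0.11 for CD74, -7.28 ± 0.17 for HLA-DPB1, -8.51 ± 0.12 for HLA-DRA and -10.50 ± 0.18 for HLA-DRB1.

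Between genes, levels were compared per kb of the principal transcript in GENCODE v29. In A101D the order ran from CD74 (379 ± 28.9 CPM per kb, SD, n = 8) through HLA-DRB1 (234 ± 13.8), HLA-DRA (227 ± 11.3), HLA-DRB5 (134 ± 10.1), HLA-DPA1 (84.5 ± 3.80), HLA-DMA (59.1 ± 2.50), HLA-DQB1 (41.4 ± 4.19) and HLA-DPB1 (38.7 ± 3.75) to HLA-DQA1 (7.55 ± 0.975). The libraries overlapped between HLA-DRB1 and HLA-DRA and between HLA-DQB1 and HLA-DPB1, and between no other neighbours in this order. CIITA was left out of the order, since its annotated coding transcripts run from 2344 to 16059 bases, which puts it anywhere from 28.7 down to 4.19 CPM per kb. Per kb of the union of all annotated exons, CD74 came behind HLA-DRB1, HLA-DRA and HLA-DRB5.

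Within A101D, the genes differed between replicates 1 to 4 and 5 to 8, and CIITA differed the other way from most of the rest. CIITA was higher in replicates 1 to 4, while CD74 and 5 of the HLA genes were slightly lower there. CIITA had 81.7, 78.0, 80.0 and 78.9 CPM in replicates 1 to 4 and 51.8, 53.2, 56.3 and 58.2 CPM in replicates 5 to 8. The 2 sets do not overlap and differ by -0.54 ± 0.04 on the log2 scale (SE, 5 to 8 minus 1 to 4). CD74 went the other way, with 361, 357, 335.5 and 335 CPM in replicates 1 to 4 and 392.5, 403, 400.3 and 392 CPM in replicates 5 to 8, a log2 difference of 0.19 ± 0.03. HLA-DRB5 had 156, 160.5, 154 and 156 CPM and then 180.2, 180.6, 180.6 and 180.2 CPM, a log2 difference of 0.20 ± 0.01. Replicates 5 to 8 were the higher set for both genes, with no overlap.

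In all, 6 of the 10 genes were higher in replicates 5 to 8 with no overlap (CD74, HLA-DRA, HLA-DRB1, HLA-DRB5, HLA-DQB1 and HLA-DPA1), 2 were lower (CIITA and HLA-DPB1) and 2 overlapped (HLA-DQA1 and HLA-DMA). Among the 19481 genes that averaged 10 or more counts in A101D, the shares were 32.8% higher and 31.4% lower, so sets that do not overlap are common in this line. The 6 log2 differences were small, from 0.11 (HLA-DRA and HLA-DPA1) to 0.27 (HLA-DQB1). HLA-DPB1 had 67.0, 66.8, 64.0 and 64.1 CPM in replicates 1 to 4 and 51.7, 54.9, 57.7 and 56.5 CPM in replicates 5 to 8, a log2 difference of -0.25 ± 0.04. HLA-DPB1 therefore went with CIITA and against HLA-DPA1 (0.11 ± 0.02), the gene of its partner chain. HLA-DQA1 (0.24 ± 0.11) overlapped only through replicate 2 and would be higher in replicates 5 to 8 without it, as it is with total counts as the scaling, and HLA-DMA (-0.09 ± 0.03) would be lower in replicates 5 to 8 without replicate 4.

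**Figure D2:**
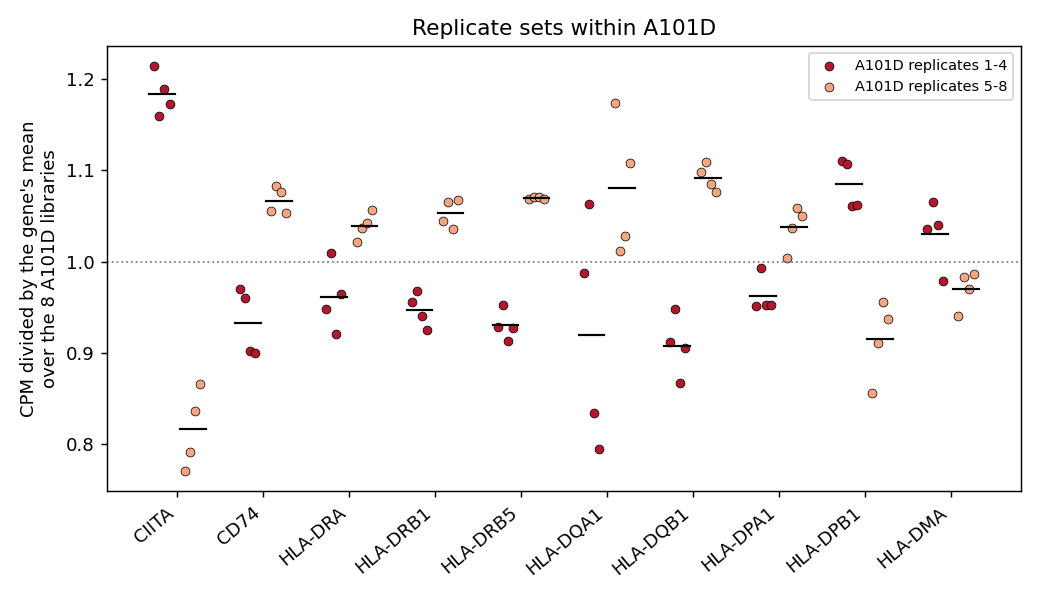
CPM of each gene in the 8 A101D libraries divided by the gene's mean over them, with replicates 1 to 4 dark, replicates 5 to 8 light and the mean of each set as a bar. CIITA and HLA-DPB1 lie higher in replicates 1 to 4, and the sets of HLA-DQA1 and HLA-DMA overlap.

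The sum of CD74 and the 8 HLA genes was 1400 ± 38 CPM in A101D replicates 1 to 4 and 1540 ± 14 CPM in replicates 5 to 8 (SD, n = 4 per set). Set against CIITA, the sum was 17.4, 18.6, 17.1 and 17.5 times the CIITA level in replicates 1 to 4 and 29.4, 29.2, 27.5 and 26.6 times in replicates 5 to 8. In MeWo the same quantity was 0.599 ± 0.059 (SD, n = 8), with a range of 0.522 to 0.685. A unit of CIITA mRNA thus stood beside far less class II mRNA in MeWo than in A101D, whichever A101D set is taken. The replicate sets of A101D also differed in 3 technical values. Their TMM factors were 0.959 to 0.984 and 1.03 to 1.05, the share of mitochondrial counts was 1.71% to 1.92% and 1.93% to 2.33%, and the genes with a count were 31281 to 33107 and 34020 to 34607, in replicates 1 to 4 and 5 to 8. The part of these in the differences was not tested.

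**Figure D3:**
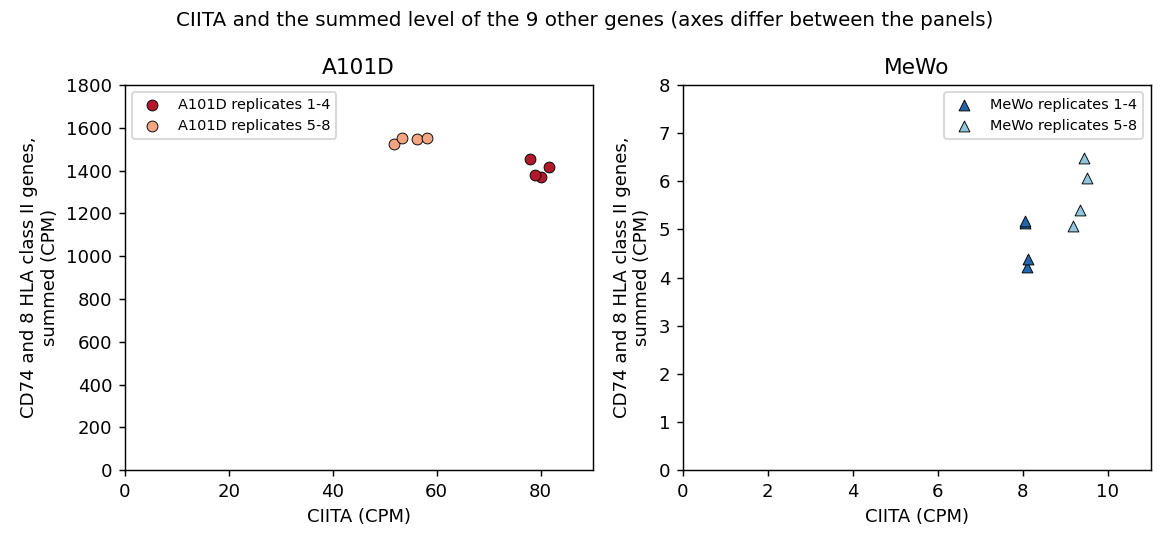
CIITA CPM (x axis) against the summed CPM of CD74 and the 8 HLA class II genes (y axis) in each library of A101D (left) and MeWo (right), with axes that start at 0 and differ between the panels. The A101D sets lie apart, at 17.1 to 18.6 and 26.6 to 29.4 times the CIITA level, and the MeWo libraries lie at 0.522 to 0.685 times.

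In MeWo, 5 of the 10 genes averaged 10 or more counts per library. CIITA was higher in replicates 5 to 8, with 8.05, 8.04, 8.09 and 8.13 CPM in replicates 1 to 4 and 9.51, 9.18, 9.45 and 9.34 CPM in replicates 5 to 8, a log2 difference of 0.21 ± 0.01. The direction is opposite to that in A101D. CD74 was also higher, with 2.34, 2.11, 1.84 and 1.91 CPM and then 2.77, 2.46, 3.30 and 2.84 CPM, a log2 difference of 0.46 ± 0.11. The sets of HLA-DRA, HLA-DPB1 and HLA-DMA overlapped, and that of HLA-DRA would be higher in replicates 5 to 8 without replicate 2. None of the 5 was lower, and 9.31% of 18145 genes were higher and 9.98% lower with no overlap in MeWo. Replicates of the same number are not shown to share a medium between the lines. The other 5 genes had means of 0 to 6.75 counts per MeWo library, too few to compare the sets.

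The genes around the 10 were taken from 8 lists, and the lines were compared with limma over all 19247 genes tested, of which 79.0% passed an adjusted p of 0.05, 38.6% higher and 40.4% lower in MeWo. Of the 9 other class II region genes, 4 passed the low-count filter, and each reached it in all 8 A101D libraries and in no MeWo library. They could therefore enter only as lower in MeWo, and their levels are given with no test. HLA-DMB, the partner chain of HLA-DMA, had 25.3 ± 2.20 CPM in A101D and 16 counts in all of MeWo, a ratio of summed counts of 431.5 (exact 95% interval 265.5 to 755). HLA-DOA, a chain of the inhibitor of HLA-DM, had 3.12 ± 0.589 CPM in A101D and 2 counts in all of MeWo, a ratio of 425 (117 to 3513). HLA-DQB2 and the pseudogene HLA-DRB6 were the other 2, and reads of all these genes may be shared with the main HLA genes.
With 1 mismatch allowed in the X box, 3 of 5 such genes in the promoter table had a pair (HLA-DOA, HLA-DOB and HLA-DQB2). With no mismatch only HLA-DOA had the paired boxes, shown for comparison with HLA-DMA (minus strand).
HLA-DOA (chr6:33009642-33009703): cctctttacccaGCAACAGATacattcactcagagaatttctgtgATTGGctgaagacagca

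The mRNAs of the DNA-bound proteins on which CIITA docks, and of co-activators, differed by small amounts in both directions between the lines. The proteins were not measured. All 11 genes of the promoter-binding complex and co-activator list were tested, 5 were higher in MeWo, 5 lower and KAT2B did not pass, with log2 differences from -0.44 to 0.47. RFX5, the DNA-binding RFX subunit, had 86.8 ± 4.45 CPM in A101D and 64.6 ± 6.30 CPM in MeWo (log2 difference -0.43 ± 0.06 SE, adjusted p = 1.90e-06). RFXANK, a further subunit, was lower in MeWo (-0.44 ± 0.05, adjusted p = 8.83e-07 in limma), while RFXAP was higher (0.47 ± 0.09, adjusted p = 1.09e-04) and so was NFYC, a subunit of NF-Y (0.46 ± 0.04, adjusted p = 4.28e-09). Each of these line differences is smaller than that of any of the 10 genes. Within A101D, 3 of the 11 were higher in replicates 5 to 8 without overlap, 5 lower and 3 overlapping. Among all genes the shares were 32.8% higher and 31.4% lower. These set differences ran from -0.58 (KAT2B) to 0.49 (CREBBP) on the log2 scale.

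Interferon-gamma signalling and the control of CIITA gave a mixed picture, with 5 of 12 tested genes higher in MeWo, 5 lower and 2 not called. IRF1, a transcription factor that acts on CIITA, was lower in MeWo (11.9 ± 3.01 against 7.52 ± 0.452 CPM, log2 difference -0.63 ± 0.14, adjusted p = 4.36e-04). JAK2, a kinase of the interferon-gamma receptor, was also lower (-0.85 ± 0.06, adjusted p = 3.38e-10), while the receptor chain IFNGR1 was higher (0.89 ± 0.10, adjusted p = 3.79e-07).

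The regulators that act against this pathway were split. SOCS3 was higher in MeWo (log2 difference 1.58 ± 0.10, adjusted p = 7.85e-11, limma) and SOCS1 lower (-1.42 ± 0.23, adjusted p = 2.05e-05), at 0.549 ± 0.174 and 0.197 ± 0.0663 CPM, with 1 MeWo library at the filter. SOCS1 reached the filter in 8 A101D libraries, so it entered the test through the line where it is higher, which favours that direction. PRDM1, known as a repressor of CIITA in plasma cells, was lower in MeWo, with 14.5 ± 5.60 CPM in A101D and 0.637 ± 0.151 CPM in MeWo (-4.41 ± 0.37, adjusted p = 5.01e-09, limma). In A101D, PRDM1 had 8.65 to 9.87 CPM in replicates 1 to 4 and 19.3 to 20.5 CPM in replicates 5 to 8. IRF1 had 8.56 to 9.63 CPM in the first set and 14.0 to 15.5 CPM in the second, and the sets overlapped for neither gene. The list of 12 as a whole went mostly the other way in A101D, with 3 genes higher in replicates 5 to 8 without overlap, 6 lower and 3 overlapping. Among all genes the shares were 32.8% higher and 31.4% lower. A link of these genes to the CIITA level was not tested.

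Of 12 genes that interferon-gamma induces outside antigen presentation, 6 passed the low-count filter, 2 of them (GBP4 and CXCL9) through A101D alone. The other 4 (GBP1, GBP2, ICAM1 and STAT2) were lower in MeWo, with a median log2 difference of -3.26 against -0.02 for all genes tested. GBP4, a guanylate-binding protein, had 1.08 ± 0.401 CPM in A101D and 5 counts in all of MeWo, a ratio of 59.4 (25.2 to 184). CXCL9, a chemokine, had 0.456 ± 0.140 CPM in A101D and 1 count in all of MeWo, a ratio of 123.5 (21.8 to 4916). The 6 that were not tested (GBP5, CXCL10, CXCL11, IDO1, IRF8 and SERPING1) had means under 0.5 CPM in both lines.

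The endosomal genes of class II processing did not share the direction of the 10 genes as a list: 8 of 11 tested were higher in MeWo, 2 lower and SPPL2A not called, with a median log2 difference of 0.67. The 2 lower ones were CTSS, the protease that trims CD74 in B cells and dendritic cells, with 12.3 ± 3.01 CPM in A101D and 0.798 ± 0.168 CPM in MeWo (-3.92 ± 0.23, adjusted p = 2.97e-11, limma), and the protease LGMN (-1.22 ± 0.08, adjusted p = 6.82e-11). CTSH (2.06 ± 0.04, adjusted p = 2.33e-18) and CTSD (1.36 ± 0.04, adjusted p = 4.51e-16), both lysosomal proteases, were higher. IFI30, the lysosomal thiol reductase, was near 0 in both lines, with 0.162 ± 0.109 CPM in A101D and 0.218 ± 0.0670 CPM in MeWo. Of the CD74 ligands and partners, neither of the 2 tested genes passed. CD44, the co-receptor of CD74, had 374 ± 39.5 CPM in A101D and 393 ± 11.1 CPM in MeWo (0.08 ± 0.06, adjusted p = 0.188). MIF, the ligand of CD74, had 0.111 ± 0.0707 CPM in A101D and 0.0671 ± 0.0421 CPM in MeWo, and MIF-AS1 overlaps it on the opposite strand over 802 bases in GENCODE v29. The part of that overlap in the MIF counts was not tested.

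Class I presentation, the route to CD8+ T cells, was measured in 16 genes, of which 10 were lower in MeWo, 4 higher and 2 (HLA-F and B2M) not called, with a median log2 difference of -0.40. HLA-C was lower (505 ± 20.3 against 65.2 ± 2.83 CPM, -2.95 ± 0.04, adjusted p = 3.07e-20, limma) and so was the immunoproteasome subunit PSMB9 (-3.54 ± 0.20, adjusted p = 2.66e-11). The peptide-trimming ERAP1 was higher in MeWo (0.75 ± 0.04, adjusted p = 1.07e-11, limma). NLRC5, the class I counterpart of CIITA, had 17.8 ± 1.40 CPM in A101D and 19.9 ± 1.26 CPM in MeWo (0.16 ± 0.06, adjusted p = 0.0148), a call lost with no low-count filter (adjusted p = 0.0565) and in replicates 1 to 4 alone (adjusted p = 0.297). B2M, the light chain of class I, had 500.1 ± 25.4 and 473 ± 20.6 CPM (-0.08 ± 0.04, adjusted p = 0.0673), and passed in replicates 5 to 8 alone (-0.07, adjusted p = 0.0207).

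Of the co-stimulation and checkpoint ligands, 7 passed the filter, 1 of them (CD80) through A101D alone, and of the other 6, 4 were lower in MeWo and 2 higher, with a median log2 difference of -1.16. TNFSF4, the OX40 ligand, was lower (-3.98 ± 0.77, adjusted p = 1.52e-04, limma), and in A101D it had 2.56 to 4.00 CPM in replicates 1 to 4 and 16.03 to 19.5 CPM in replicates 5 to 8. Among the 7 genes of this list that averaged 10 or more counts in A101D, 2 were higher in replicates 5 to 8 without overlap, 2 lower and 3 overlapping. CD80, a ligand of CD28, had 0.761 ± 0.210 CPM in A101D and 24 counts in all of MeWo, a ratio of 8.75 (5.73 to 14.0). LGALS3, a lectin that binds LAG3 (0.94 ± 0.08, adjusted p = 2.80e-09), and the adhesion ligand CD58 (0.18 ± 0.04, adjusted p = 1.37e-03) were higher in MeWo. Over the 8 lists, 69 of 87 genes passed the filter, 7 of them through A101D alone, with no MeWo library at it. Of the other 62, 24 were higher in MeWo, 30 lower and 8 not called, and SOCS1 and CD274 are among the 30. CD274, 1 of the 4 lower ligands, reached the filter in 8 A101D libraries and 4 MeWo libraries. It too entered the test through the line where it is higher, which favours that direction.

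**Figure D4:**
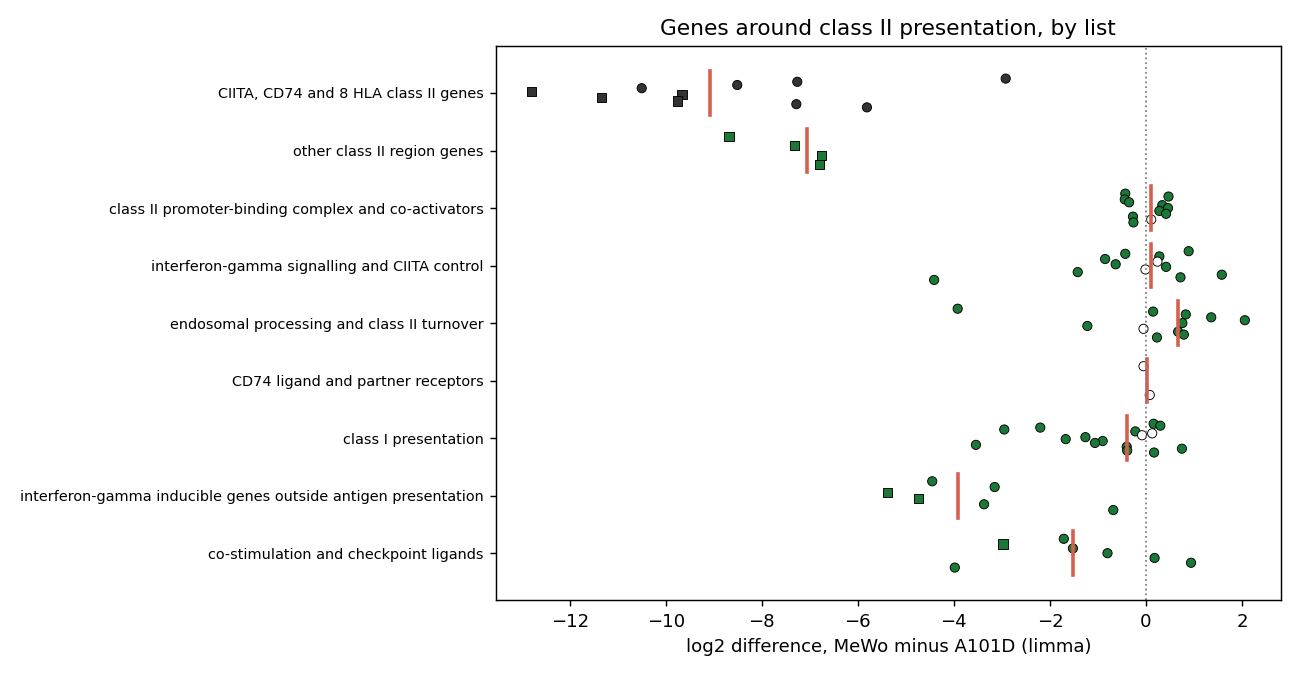
Log2 difference between the lines (x axis, MeWo minus A101D, limma) of each tested gene by list, with the list median as a red bar. Filled green symbols passed an adjusted p of 0.05 and open ones did not. Squares passed the low-count filter through A101D alone. They could enter only as lower in MeWo, so the green of a square is not read as a test result. The 10 genes at the top are drawn in grey with no test. The list of the promoter-binding complex and co-activators stays within -0.44 to 0.47, and all 4 other class II region genes are squares.

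Class II is a mark of professional antigen-presenting cells, so markers of other cells were read beside it. All 6 melanocyte markers (SOX10, MITF, PMEL, MLANA, TYR and S100B) had a mean of at least 1 CPM in both lines. They summed to 1260 to 1560 CPM in the A101D libraries and 7770 to 8480 CPM in MeWo, but were unlike each other. TYR had means of 1.52 CPM in A101D and 298 CPM in MeWo, PMEL of 223 and 6642 CPM, and MLANA of 23.6 and 175 CPM. MITF had 182.5 and 560 CPM and SOX10 379 and 459 CPM, while S100B went the other way, with 610 and 131.5 CPM. The defining leukocyte gene PTPRC was at 0 to 0.277 CPM in A101D and at most 0.126 CPM in MeWo, and the B cell gene MS4A1 at 0 to 0.166 CPM in A101D and 0 in MeWo. The B cell list as a whole summed to 0.297 to 0.994 CPM in A101D and in MeWo to 1.79 to 2.68 CPM, most of it CD79B, and the T cell list to at most 0.175 CPM. The leukocyte list summed to 2.68 to 3.73 CPM in A101D, with 1 of 3 genes over 1 CPM, and to 1.23 to 1.97 CPM in MeWo. That gene was CORO1A, with means of 2.32 CPM in A101D and 1.08 CPM in MeWo. The macrophage and dendritic cell list had 3 of 5 genes over 1 CPM in A101D and summed to 16 to 24.5 CPM, most of it ITGAX (12.3 to 19.9 CPM), while SPI1 and CD14 were at most 0.205 CPM. In MeWo that list summed to 5.65 to 6.89 CPM. LYZ had means of 2.93 CPM in A101D and 0.638 CPM in MeWo, and CSF1R of 1.14 and 0.755 CPM. CD14 went the other way, with 0.110 and 0.226 CPM.

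The genes whose profile over the 16 libraries was most like the mean of the 10 were MIR548XHG, a transcript known by its identifier ENSG00000264067, CLEC2L, MYH13 and DSCR8, with root mean square differences of 0.14 to 0.16 on the log2 scale among 10741 candidates. All 5 had 12.4 to 17.7 CPM in A101D and 0 or 1 count in all of MeWo, and none lies on chromosome 6. The likeness rests on the gap between the lines: in A101D none of the 5 was higher in replicates 5 to 8 without overlap, as 6 of the 10 genes were.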

How the data were processed

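Libraries of 16 samples were made from total RNA with a kit that keeps the strand, per the labels' protocols. The deposited tables give, per line, whole-number counts per gene over exons, each joined with its Ensembl identifier in 1 cell, and the authors did not normalize these counts. The tools were Trimmomatic 0.39-1, STAR 2.7.1a and featureCounts 2.0.0 with GRCh38, per the submitters' processing notes. The strand setting of the counting was not given in the sources used here. Symbols were found for 60357 of 60676 identifiers, and positions and lengths come from GENCODE v29.

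Libraries held 28910881 to 38961862 counts. TMM factors used trims of 30% and 5%. Genes entered the test with 0.298 CPM (10 counts at the median depth) in 8 libraries and 15 counts in all, which left 19247. A101D and MeWo were set against each other in limma 3.58.1 under R 4.3.3 (voom, robust moderation, Benjamini-Hochberg over all genes), a step tested on simulated data. The simulation gave all genes the same dispersion, changed few of them and held no replicate sets. It therefore does not show how the test behaves in data like these. The quasi-likelihood count test and DESeq2 were not run. Their use was tied to columns that pass as counts, and each deposited cell joins an identifier and a count. The values taken from the cells are whole-number counts. Log2 CPM used a prior count of 2, and all SDs are between libraries. The p-values measure the spread between these libraries, which may be technical. No 2 libraries of a line were within sampling noise of each other (lowest chi-square per degree of freedom 1.86).

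The 10 genes and all lists were chosen with earlier results of these data known. Every one of the 10 genes is named. Of each list, up to 2 genes past the threshold with the largest change in each direction are named, with RFX5, IRF1, JAK2, HLA-DMB, HLA-DOA, CTSS, IFI30, NLRC5, B2M, MIF and CD44 whatever their values, and the 5 genes of nearest profile with at least 10 CPM in a line. Genes not called or not tested, marker genes and a few others are named in addition. The values of 2 genes that this rule takes are not reported here.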

Additional observations from a re-analysis of the deposited data

Results flagged for a closer look

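HLA-DRA in MeWo replicate 5 stood apart, with 1.35 CPM (42 counts) while the remaining MeWo libraries lay between 0.603 and 0.851 CPM. CXCL9 in A101D replicate 2 stood at 0.749 CPM (24 counts), against 0.318 to 0.522 CPM in the others, just past the limit for an outlying library. LGMN in MeWo replicate 8 was low, with 31.8 CPM against 36.2 to 37.2 CPM. These are the 3 libraries found in 65 groups of 8 checked, where chance alone gives about 1 in 20.

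CIITA differed between the replicate sets in opposite directions in the lines, with a log2 difference (5 to 8 minus 1 to 4) of -0.54 in A101D and 0.21 in MeWo. PSMB9 did the same, with -0.62 in A101D and 0.43 in MeWo, and so did GBP1, an interferon-induced guanylate-binding protein, with -0.60 and 0.50, and HLA-E, a class I gene, with -0.05 and 0.12. In these 4 genes the sets did not overlap in either line, and GBP1 and HLA-E were named after their values were seen. Without overlap, 31.4% of 19481 genes were lower in replicates 5 to 8 of A101D and 9.31% of 18145 genes higher in those of MeWo. The share of all genes with both was not counted. The difference between the lines was not tested, and no label ties the replicate numbers of one line to those of the other.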

How the results depend on the processing

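The count of the 10 genes whose lines do not overlap stayed at 10 under every alternative run (upper-quartile or median-of-ratios factors, total counts as the scaling, a prior count of 0.5, either replicate set alone, without MeWo replicate 2, and the replicate number as a block). These genes were chosen for their higher level in A101D, so that count was all but fixed in advance and lends no support. The count whose A101D sets do not overlap was 8, with 9 under total counts and 8 to 9 when 1 replicate was left out. In MeWo the count was 2, with 2 to 3 when 1 replicate was left out. Of the list genes, 61 passed, 7 of which entered the test through A101D alone, with 56 at a filter of 1 CPM in 8 libraries, 73 with no filter and 71 in replicates 5 to 8 alone. CD44 passed in replicates 5 to 8 alone (0.21, adjusted p = 1.09e-06, limma). The other scalings moved the median of all genes by -0.014 to 0.0064. Limma-trend, chosen after seeing the data, gave 61 list genes. For HLA-DQA1, HLA-DQB1 and HLA-DRB5 it moved the log2 difference to -7.67, -9.83 and -11.20, since few or no MeWo counts lie behind them. The line difference of CIITA depended on the replicate set. It was -2.92 over all libraries, -3.28 in replicates 1 to 4 alone and -2.52 in replicates 5 to 8 alone.

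The replicate numbers were not taken as pairs: same-numbered libraries of the lines correlated at 0.0524 to 0.174, with 7 of 8 over 0.1, and 2 of 8 A101D libraries correlated best with their own number. With the replicate block, 62 list genes and 15332 of all genes passed, against 61 and 15202 without it, and B2M passed (-0.08, adjusted p = 0.0451, limma). DESeq2 and the quasi-likelihood test were not run. Depth limits the MeWo values of HLA-DRB1, HLA-DRB5, HLA-DQA1, HLA-DQB1 and HLA-DPA1, which rest on 0 to 11 counts per library.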
